A study of Mus musculus with 22 samples.

Results

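Distal chromatin that was open in every library was examined in ATAC-seq of mouse adipocyte nuclei. ATAC-seq cuts and tags accessible DNA with a transposase, and the deposited files list the peaks of coverage found in each of 22 libraries. All peaks that overlapped by at least 1 bp on chromosomes 1 to 19 were merged into 102995 union regions. The 1553 members of the set had a peak in all 22 libraries, overlapped no window of 2 kb around a transcription start site (TSS) and spanned at most 10 kb. They were therefore selected on the measured peak calls, and their presence in every library is a property of the selection and no finding. Of 12196 union regions with a peak in all 22 libraries, 8721 touched a promoter window and 3475 were distal, of which 1922 were wider than 10 kb and fell outside the set.

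The nuclei came from the epididymal fat of male AdipoERCre x NuTRAP mice, labelled as being on a C576BL6 background. In these mice a tamoxifen-inducible Cre, driven in adipocytes, switches on a tag that lets adipocyte nuclei be captured through biotin. All groups carried the alleles and received tamoxifen before the diets. The 18-week-old mice had eaten chow (C, n = 3) or a high-fat diet (HFD) for 12 weeks (H, n = 3). The 26-week-old mice had stayed on chow (CC_s, n = 3) or had 12 weeks of HFD followed by 8 weeks of chow (HC, n = 3). The 31-week-old mice had eaten chow (CC_l, n = 2) or HFD for 25 weeks (HH, n = 3), and the 39-week-old mice had stayed on chow (CCC, n = 2) or had 25 weeks of HFD followed by 8 weeks of chow (HHC, n = 3). The C and CC_l mice ate a low-fat chow, and the 8 weeks of weight loss were spent on another, standard chow in the HC, HHC, CC_s and CCC groups alike. Each replicate is labelled as an individual biological replicate. The long-arm mice were also older than those of the short arm, so duration and age cannot be told apart. Whether the libraries of both arms were made together is not stated, and a batch by arm could not be told apart from duration either.

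Regions away from promoters that stay accessible include enhancers, where transcription factors bind and act on genes that may lie far off, and insulator sites, where CTCF binds its motif and anchors chromatin loops. In adipocytes the enhancers of lipid and adipokine genes are bound by PPARγ with RXR and by C/EBP factors. Enhancers tend to be specific to a cell type, while many CTCF sites are shared between tissues. Peak lists can also hold repetitive DNA, because reads from many genomic copies can be placed on the few copies that the assembly contains.

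The sequences below are shown because the strongest members were repeats, and the remainder carried few of the motifs that were searched. Each is 120 bases of the plus strand of the RefSeq GRCm38.p6 (mm10) genome. The first lies at chr12:3109905-3110024 in the strongest member and is satellite DNA. The second lies at chr12:97061494-97061613 in the member nearest to Galc and resembles mitochondrial DNA. Neither carries capitals.
Satellite-type: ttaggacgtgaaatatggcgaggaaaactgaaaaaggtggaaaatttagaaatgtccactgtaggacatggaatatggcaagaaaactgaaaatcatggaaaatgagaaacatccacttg
Mitochondrial-type: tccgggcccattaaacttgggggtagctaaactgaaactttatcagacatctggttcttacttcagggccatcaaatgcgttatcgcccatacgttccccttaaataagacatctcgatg

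The next 4 are the strongest members that hold a motif of CTCF (chr14:51064907-51065026, near Olfr750), C/EBP (chr4:6222817-6222936, near Ubxn2b), AP-1 (chr11:43929225-43929344, near Adra1b) and the PPAR-RXR direct repeat (chr5:142367501-142367620, near Foxk1). Capitals mark the motif.
CTCF: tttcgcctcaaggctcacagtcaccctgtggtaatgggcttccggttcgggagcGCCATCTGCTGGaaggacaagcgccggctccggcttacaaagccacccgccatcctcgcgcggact
C/EBP: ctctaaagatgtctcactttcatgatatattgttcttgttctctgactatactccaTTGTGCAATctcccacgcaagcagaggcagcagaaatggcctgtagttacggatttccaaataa
AP-1: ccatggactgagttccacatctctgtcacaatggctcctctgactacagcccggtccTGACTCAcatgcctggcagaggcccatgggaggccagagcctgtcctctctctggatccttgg
PPAR-RXR: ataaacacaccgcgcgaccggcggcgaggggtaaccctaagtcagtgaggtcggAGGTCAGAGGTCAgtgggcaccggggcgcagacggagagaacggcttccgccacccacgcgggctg

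The last 3 are centred on the summits of members whose signal differed between H and C. The members nearest to Eef2kmt (chr16:5778309-5778428) and Elf2 (chr3:51359287-51359406) were higher in H and held none of the searched motifs. The member nearest to Rgma (chr7:72971998-72972117) was lower in H and held an AP-1 motif on the minus strand, in capitals.
Eef2kmt: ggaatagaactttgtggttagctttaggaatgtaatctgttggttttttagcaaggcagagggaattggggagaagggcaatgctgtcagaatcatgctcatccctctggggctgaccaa
Elf2: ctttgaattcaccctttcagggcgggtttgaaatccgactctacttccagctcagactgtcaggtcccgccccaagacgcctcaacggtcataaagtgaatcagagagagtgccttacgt
Rgma: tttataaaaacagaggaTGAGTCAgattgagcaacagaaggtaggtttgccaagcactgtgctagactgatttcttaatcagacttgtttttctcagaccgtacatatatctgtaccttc

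The members spanned 894 to 10000 bp, with a median of 6780 bp. In most of them the libraries had called the same stretch of DNA, since 1370 (88.2%) held bases covered by a peak of every library, with a median of 1001 such bases over all members. In the other 183 (11.8%) no base was covered in all 22 libraries, so that these regions count as open everywhere only because neighbouring peaks were merged. The point of highest coverage fell within 300 bp of DNA in all 22 libraries for 557 members (35.9%) and in at least 20 libraries for 1057 (68.1%). Beyond the threshold of the selection, 1396 distal regions of the same width limit had a peak in 21 libraries. The library lacking the peak was HHC 3 for 672 of these and HC 3 for 411. Their median of the mean log2 signal was 15.07, against 15.57 for the members. The widest member, 10000 bp nearest to Arhgap42, and the narrowest region excluded for its width, 10002 bp nearest to Prr23a1, lay on either side of the width limit. The member closest to a TSS had its edge 2003 bp away, near Cyp2s1, and the region that just entered a promoter window, near Mbd2, lay at 1998 bp.

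By annotation, 835 members (53.8%) were intergenic and 683 (44.0%) were intronic at their summit, while 18 lay in a UTR, 10 in a coding exon and 7 in a noncoding exon. The median distance to the nearest protein-coding TSS was 56.9 kb, and 537 members (34.6%) lay more than 100 kb away. In the 12483 distal regions with a peak in 11 to 21 libraries, 43.2% were intergenic, the median distance was 46.7 kb and 27.6% lay more than 100 kb away. In the distal regions of 1 library, 55.4% were intergenic, the median distance was 97.6 kb and 49.4% lay more than 100 kb away, so that the members lay between these classes. A member was linked to a gene when the TSS or the body of the nearest protein-coding gene lay within 20 kb, which held for 738 members (47.5%) and 677 genes.

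Most linked genes, 628 of them, had 1 member, and 40 had 2. Mecom, which encodes a zinc finger transcription factor, Zfhx3, which encodes a zinc finger homeodomain protein, and Anks1b, which encodes an ankyrin repeat protein, had 4 each. Gabrg3, which encodes a GABA receptor subunit, Arhgap28, Adgrl3, Elmo1, Klhl29 and Lhfpl3 had 3 each. The strongest member of Mecom lay in an intron with a mean log2 signal of 16.69, that of Zfhx3 in an intron at 16.66, and that of Anks1b in an intron at 16.45. Gene length was not taken into account in the counts.

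Genes known for adipocyte function were linked at a share near that of all genes. Of 48 adipocyte genes, 1 had a linked member, Aqp7, the glycerol channel of adipocytes, or 2.08% against 3.26% of all 20780 protein-coding genes. The member near Aqp7 lay 17.3 kb from its TSS, ranked 979 by signal and ranged from 14.59 in HH 1 to 15.89 in HC 2, so that it was neither strong nor variable. When distal regions of any width were taken, 5 of the 48 genes (10.4%) had one against 6.82% of all genes. The width limit therefore removed most of the links to adipocyte genes. All 48 adipocyte genes had a peak over a promoter window in all 22 libraries, Adipoq, Plin1, Pparg, Lep and Cidec among them. The same held for all 21 genes of general transcription and translation and for 24 of 36 inflammatory genes, 8 of 23 hepatocyte genes and 3 of 23 neuronal genes.

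The other lists held 0 to 2 linked genes each, numbers too small to set them apart from the 3.26% of all genes. Vcam1, which encodes an adhesion molecule for leukocytes, was the 1 linked gene of 36 inflammatory genes. None of 21 genes of general transcription and translation, 23 neuronal genes, 12 macrophage markers or 12 mesothelial markers had a linked member. Among markers of other cell types, Flt1 and Vwf were linked of 12 endothelial genes (16.7%), Dpp4 of 12 progenitor genes (8.33%), Cd2 of 12 lymphocyte genes (8.33%) and Alb of 23 hepatocyte genes (4.35%). For the marker lists the promoters were open in all 22 libraries at 3 of 12 macrophage, 3 of 12 endothelial, 5 of 12 progenitor, 2 of 12 lymphocyte and 3 of 12 mesothelial genes. How far nuclei of these cell types contributed to the members was not tested.

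Sequence composition was described in the summit windows. In 300 bp around the summit the median GC content was 49.3% in the members, 47.3% in distal regions of 11 to 21 libraries, 45% in the 42718 distal regions of 1 library and 60.3% in promoter regions open in all 22 libraries. A ratio of observed to expected CpG above 0.6, the range of CpG islands, was found in 8.31% of members, 2.87% of distal regions of 11 to 21 libraries and 61.7% of the promoters. Repeat-masked bases made up 11.5% of the members' windows on average and 33.4% of those of distal regions found in 1 library.

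Motifs were searched as exact strings on both strands, and a match describes the letters of the window and no binding. The AP-1 motif TGACTCA was present in 11.3% of members, the C/EBP motif ATTGCNNAA in 10.5% and the CTCF core CCANNAGNNGGC in 6.95%. The corresponding shares in distal regions of 11 to 21 libraries were 8.85%, 9.74% and 8.30%, and in distal regions of 1 library 5.68%, 3.53% and 2.5%. The CTCF share was therefore not higher in the members than in distal regions open in most libraries. These shares are descriptions, and no test was made between classes of region. The PPAR-RXR repeat AGGNCANAGGNCA occurred in 2 members (0.13%), against 0.79% of distal regions of 11 to 21 libraries and 1.14% of distal regions open in all 22 libraries but wider than 10 kb. With windows of 200 bp the shares were 0.06% (1 member) in the members and 0.63% in regions of 11 to 21 libraries, and with windows of 500 bp 0.90% and 1.19%, so the distance between them was smaller in the widest window.

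Motifs typical of promoters were rarer in the members than in promoters. The ETS motif CCGGAAGT was present in 0.71% of members and 7.65% of promoters, and the SP/KLF motif GGGGCGGGG in 2.12% and 16.3%. In distal regions of 11 to 21 libraries the shares were lower, at 0.40% and 0.91%. EBF, by the motif TCCCNNGGGA, was found in 2.32% of members and the NF1 palindrome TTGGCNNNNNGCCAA in 1 member. GNACANNNTGTNC, the glucocorticoid receptor element (GRE), occurred in 1.42% of members and 1.51% of distal regions of 11 to 21 libraries. The NRF1 motif occurred in 0.32% of members, 2.01% of promoters and 0.03% of distal regions of 11 to 21 libraries. None of the searched motifs was present in 1051 members (67.7%), and 451 (29.0%) held 1 of them.

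**Figure D1:**
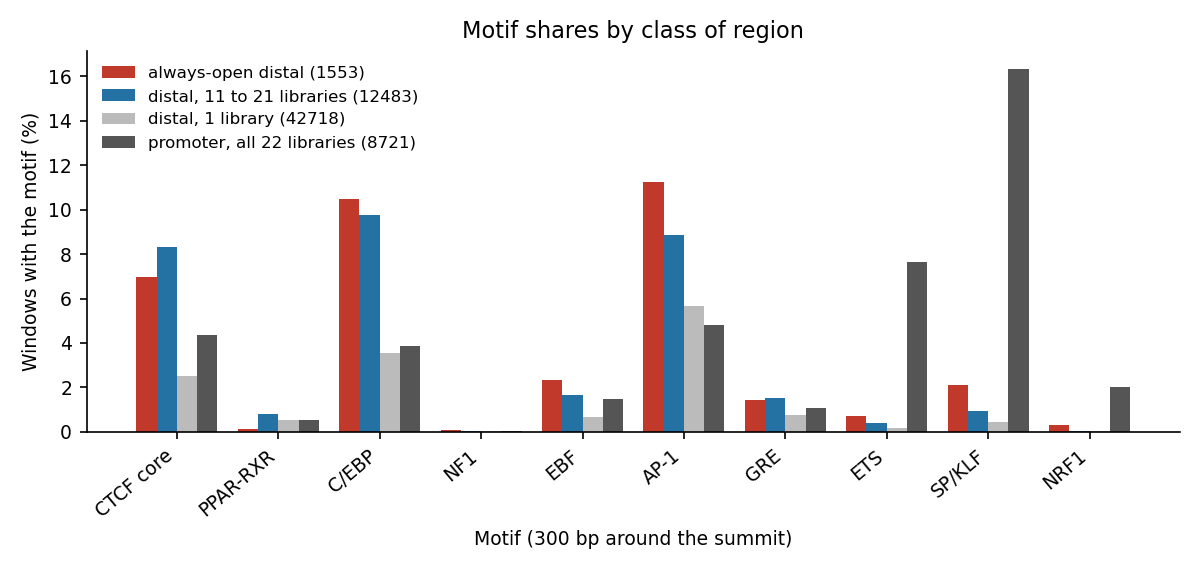
Share of 300 bp windows around the summit that held each motif (y axis, percent), for the 1553 always-open distal regions, distal regions with a peak in 11 to 21 libraries or in 1 library, and promoter regions open in all 22. For AP-1, C/EBP and CTCF the members lie above the distal regions of 1 library, and for ETS and SP/KLF motifs they lie below the promoters.

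Repeat sequence was concentrated among the strongest members. For comparisons between libraries, each library's regions were ranked by total signal, which is coverage summed over the bases of the peaks, and the top 29500 took the mean log2 value of their rank over the 22 libraries. On this log2 scale the members' means ran from 14.41 to 23.47, with a median of 15.57. Of the 10 members with the highest mean, 9 held multicopy, satellite-type, mitochondrial-type or other repeat sequence, as did 15 of the top 20, 24 of the top 100 and 85 of all 1553 (5.47%). The share was 2.47% in distal regions of 11 to 21 libraries and 2.75% in promoter regions. Of the 85, 62 were multicopy by 31-base words, 3 resembled satellite DNA and 1 mitochondrial DNA.

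The strongest member, chr12:3109528-3110421, was satellite DNA and had a maximum coverage of 46675 to 189720, with a median of 122877, against a median of 94 over the members. Its log2 signal, between 22.88 and 23.85 in all 22 libraries, varied little because the region was among the highest of each library. The next, chr6:103647317-103650903 in an intron of Chl1, a gene for a neural adhesion molecule, averaged 22.65 and was multicopy in 45.6% of its window, just under the limit of 50% used here. The members nearest to Fgf14 and Mrgprd followed at 19.19 and 18.70 and held other repeat sequence. The members nearest to Ly6c2 and Gm8797 averaged 18.83 and 18.35 and were multicopy.

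**Figure D2:**
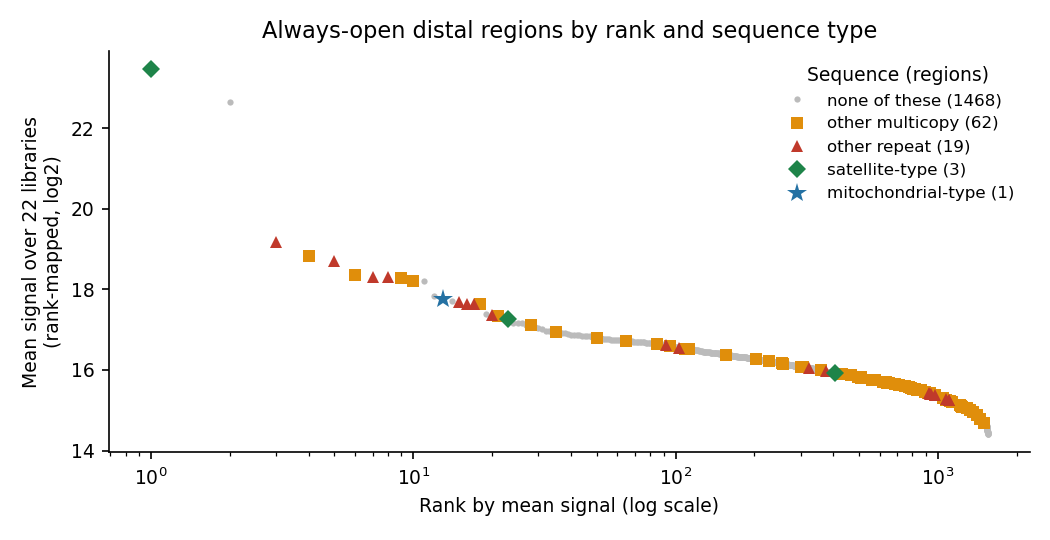
Mean rank-mapped log2 total signal over 22 libraries (y axis) against the rank of each of the 1553 regions (x axis, log scale), by sequence type. Other multicopy sequence was scored in the summit window and the other types over the whole region. Repeat and multicopy sequence fills 9 of the 10 highest ranks.

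HC 3 and HHC 3 stood apart at satellite-type sequence. At the 3 satellite-type members the medians were at least 19.92 in these libraries and at most 18.74, in HH 1, in any other. The mitochondrial-type member reached 20.47 in HC 3, 19.92 in HH 1 and 19.83 in HHC 3, and was lowest in CCC 1 at 15.98. Over the 1468 members without such sequence, by contrast, the median was lowest in HHC 3, at 15.34, and highest in CC_s 1, at 15.73. HC 3 and HHC 3 also had the lowest coverage of all libraries, with a median maximum signal of 24 over the members in each.

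The members whose signal varied most over the 22 libraries included these satellite-type and mitochondrial-type members. The SD was 1.31 at the member nearest to Dpy19l1, 1.19 at the mitochondrial-type member and 1.18 and 1.16 at satellite-type members near Fam172a and Mdga2. The member near Dpy19l1 was at 20.41 in HHC 3 and 20.13 in HC 3 and no higher than 18.50, in CCC 2, elsewhere. The least variable members lay near Wnt11, which encodes a secreted signalling protein, Plxna1, which encodes a semaphorin receptor, Jak1, which encodes a cytokine receptor kinase, and Bcl2l11, which encodes the apoptosis activator Bim, with SDs of 0.12, 0.13, 0.14 and 0.14. At the member near Wnt11 all values lay between 16.64, in H 2, and 17.13, in HC 3.

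The mean unscaled signal at the members was lower in each HFD or weight-loss group than in its control group. This was not particular to the members, since the median maximum signal at promoter regions open in all 22 libraries was 173, 220 and 265 in C and 100, 90 and 129 in H. The peak lists give no sequencing depth, and unscaled coverage moves with it. The median maximum signal over the members was 119, 137 and 186 in C and 73, 67 and 99 in H. It was 100, 146 and 122 in CC_s and 119, 86 and 24 in HC, then 77 and 133 in CC_l and 42, 94 and 101 in HH, and finally 130 and 50 in CCC and 53, 113 and 24 in HHC. The C and H libraries did not overlap, whereas the libraries of the other 3 pairs did. An exact permutation test of 3 libraries against 3 cannot give a two-sided p below 0.1, and none was run on these medians.

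Means of the library medians were 147 ± 34.7 in C and 79.7 ± 17.0 in H (SD, n = 3 each), 123 ± 23.0 in CC_s and 76.3 ± 48.2 in HC (n = 3 each), 105 ± 39.6 in CC_l (n = 2) and 79.0 ± 32.2 in HH (n = 3), and 90 ± 56.6 in CCC (n = 2) and 63.3 ± 45.4 in HHC (n = 3). Total signal gave the same order within each pair, at 76706 in C and 51370 in H, 73094 in CC_s and 45940 in HC, 54592 in CC_l and 47487 in HH, and 53868 in CCC and 39720 in HHC. After ranking, the group means of the median log2 signal lay between 15.53 in HHC and 15.69 in CC_l. The members held a middle rank in each library, with medians at the 58.0 to 69.2 percentile of its regions, against 80.2 to 86.6 for promoter regions open in all 22 libraries. Whether coverage affected the comparisons between diets was not tested.

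**Figure D3:**
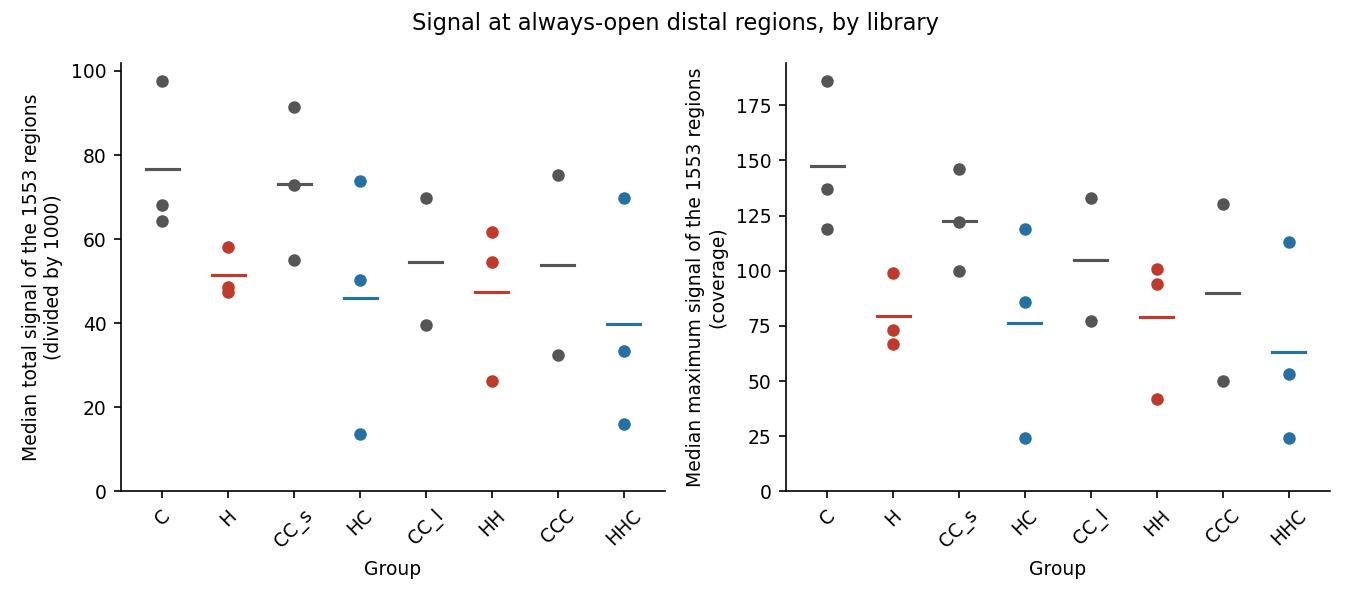
Median total signal (left, summed coverage divided by 1000) and median maximum signal (right, coverage) over the 1553 regions in each library (points), with the mean of each group (bars), without scaling for depth. C libraries lie above H libraries in both panels, and HC 3 and HHC 3 are the lowest.

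The question of the diet comparisons is whether accessibility changes with HFD and remains changed after weight loss. Regions were tested with limma on the ranked log2 signal, over all regions that passed a floor in each comparison, and all 1553 members passed. Regions counted as called when the adjusted p was below 0.05 and the signal differed by more than 1 on the log2 scale. Because a member had to keep a peak in every library, changes large enough to remove a peak are absent from the set. A value at the floor of 14.01 marks a region below the ranks that were mapped, which occurred in at least 1 library for 424 members (27.3%), in HC 3 for 169 and in HHC 3 for 224. A bulk signal cannot tell a smaller share of nuclei with an open site from less opening in each nucleus.

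Between H and C, 80 members (5.15%) were called, 41 higher and 39 lower in H. Among all 30231 regions tested, 8.38% were called, 4.98% higher and 3.39% lower. At an unadjusted p under 0.01 with an absolute log2 fold change above 1, 42 members were higher and 39 lower, against 5.08% and 3.53% of all regions. The share called was below that of all regions, a difference that was not tested, and among promoter regions open in all 22 libraries 328 (3.76%) were called. The median log2 fold change was -0.09 over the members and -0.05 over all regions. When the libraries were centred on their medians in place of ranking, the median of all regions moved to 0.19 and 105 members were called, 89 higher and 16 lower, beside 4483 of all 30231 regions, 3841 of them higher. With maximum signal 29 members were called, 24 higher and 5 lower, beside 2727 of all 30345 regions, 1690 of them higher. With no filter on regions 9 members were called, beside 354 of all 102995 regions. The balance of directions therefore depends on the scaling. The count of members was 11 without C 2, 25 without H 1, 29 without H 2 and 38 without C 1. The counts over all regions fell as well, to 648, 1475, 1401 and 1463.

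The 6 called members of smallest p showed changes well above the replicate spread. In those nearest to Gm14444 and Rgma, no base was covered by a peak in all 22 libraries. At the member nearest to Gm14444, a multicopy sequence at chr2:174961250-174969524, the log2 signal was 14.59, 14.60 and 14.40 in C and 16.60, 16.33 and 16.51 in H (log2 fold change 1.95 ± 0.21 SE, adjusted p = 0.00423). It was also 16.51, 16.36 and 17.10 in HC against 15.88, 14.53 and 14.83 in CC_s, 17.01, 16.13 and 16.53 in HH against 15.46 and 15.13 in CC_l, and 15.16, 15.75 and 16.85 in HHC against 14.85 and 14.09 in CCC. The groups did not overlap in any of the 4 pairs, although no pair other than H and C passed the adjusted threshold (adjusted p = 0.192, 0.199 and 0.801).

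The member nearest to Eef2kmt, which encodes a methyltransferase of an elongation factor, lay 522 kb from its TSS at chr16:5774898-5781700. Its signal was 14.36, 14.32 and 14.64 in C and 16.81, 16.34 and 16.47 in H (2.10 ± 0.23 SE, adjusted p = 0.00428). It stood at 15.86, 16.40 and 16.47 in HH and 14.82 and 15.43 in CC_l, without overlap. After weight loss the groups overlapped, with 16.33, 16.53 and 14.77 in HC against 15.61, 14.78 and 14.90 in CC_s, and 15.05, 15.22 and 14.46 in HHC against 15.23 and 14.01 in CCC. At chr3:51351914-51361073, 18.7 kb from the TSS of Elf2, which encodes an ETS-family transcription factor, the signal was 15.22, 15.15 and 15.56 in C and 16.56, 16.93 and 16.95 in H (1.5 ± 0.20 SE, adjusted p = 0.00674). With no filter on regions its adjusted p was 0.0782. At this member HH and CC_l did not overlap either, nor did HC, at 15.87, 16.07 and 16.04, and CC_s, at 15.84, 15.23 and 15.42, whereas HHC, at 15.70, 14.64 and 15.43, overlapped CCC, at 15.38 and 16.35.

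Of the members lower in H, that nearest to Rgma, which encodes a cell surface protein of BMP signalling and axon guidance, lay 403 kb from its TSS at chr7:72969737-72977098. It was at 16.26, 16.02 and 15.96 in C and at 14.72, 14.01 and 14.02 in H (-1.83 ± 0.28 SE, adjusted p = 0.00847), and the 2 lowest H values sat at or next to the floor. With maximum signal the log2 fold change was -0.93, short of the threshold, and with no filter on regions the adjusted p was 0.102. HH was at 14.88, 14.61 and 14.41 against 16.43 and 16.36 in CC_l, and HHC at 14.12, 14.79 and 15.11 against 16.06 and 16.12 in CCC. HC, at 16.05, 16.01 and 15.56, overlapped CC_s, at 15.71, 15.61 and 15.68. The signal was thus low under HFD in both arms and after weight loss in the long arm, where the unadjusted p was 0.0299 and the adjusted p 0.77.

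At chr18:79999216-80009204, 41.8 kb from Pard6g, a cell polarity gene, the signal was 16.31, 16.20 and 16.07 in C and 14.55, 14.82 and 14.95 in H (-1.42 ± 0.22 SE, adjusted p = 0.00867). HH was also below CC_l there, at 14.13, 14.96 and 15.11 against 16.44 and 16.16. After weight loss HC, at 15.62, 15.83 and 15.61, lay below CC_s, at 16.17, 16.01 and 15.97, and HHC, at 15.25, 15.61 and 14.20, below CCC, at 15.72 and 16.26, without overlap and without a call. With maximum signal the log2 fold change in H against C was -0.50 and was not called (adjusted p = 0.107), and the call was also lost with no filter (adjusted p = 0.0522) and without C 2 (adjusted p = 0.0532). The member nearest to Hspa9, which encodes a mitochondrial chaperone, was at 16.58, 16.87 and 16.64 in C and 15.38, 14.93 and 15.65 in H (-1.38 ± 0.23 SE, adjusted p = 0.0104). Its values in HHC, 15.99, 15.96 and 15.97, lay below 16.38 and 16.80 in CCC. Its call in H against C was lost with maximum signal, where the log2 fold change was -0.89, with no filter (adjusted p = 0.136) and without C 2 (adjusted p = 0.0616).

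**Figure D4:**
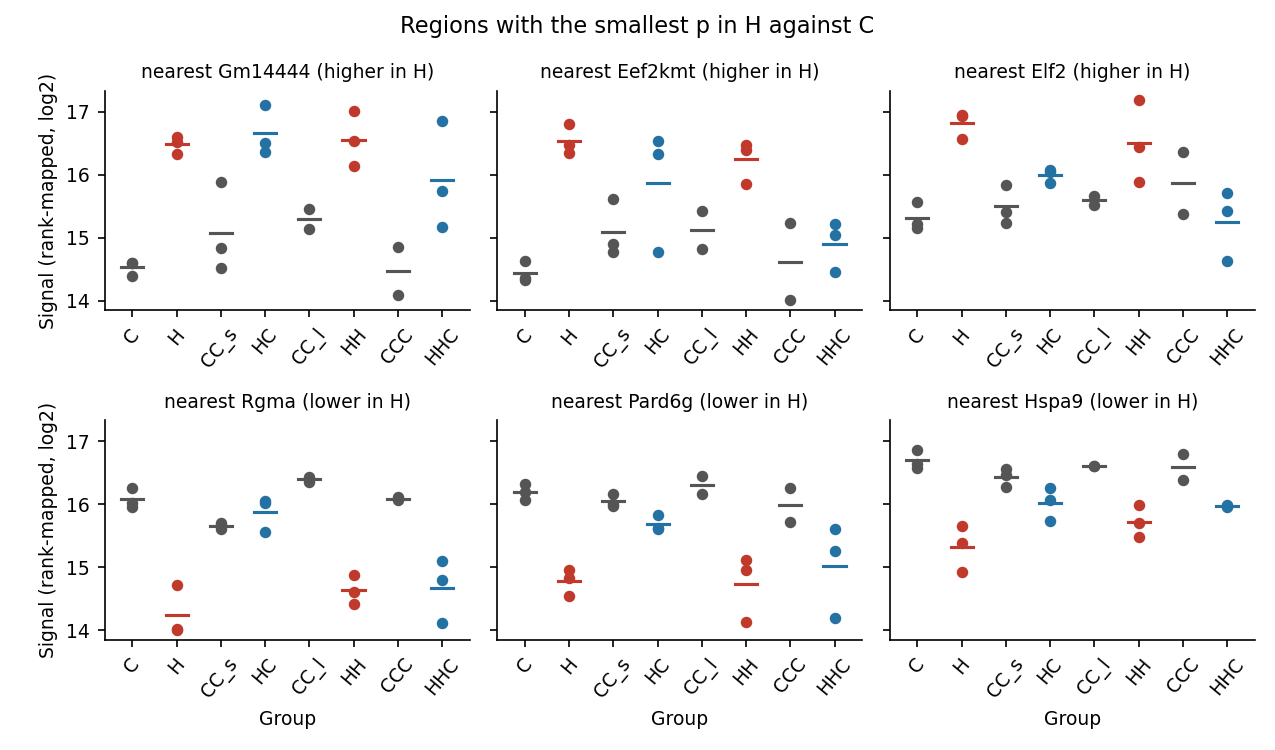
Rank-mapped log2 total signal (y axis) of the 6 called regions of smallest p in H against C, with points for libraries and bars for group means, in the 8 groups. In each panel the H and C libraries do not overlap, and HH lies on the same side of CC_l as H of C.

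The 80 called members were chosen by their difference between H and C, so those values describe the choice. The 41 higher members had a median log2 fold change of 1.26, from 1.03 to 2.10, and the 39 lower ones of -1.11, from -2.01 to -1.0. The higher members had a lower GC content, with a median of 46.3% against 52.0%, and 21 were linked to a gene against 14 of the lower ones. CTCF motifs were present in 4 and 1, and repeat sequence in 2 and 3, beside 6.95% and 5.47% of all members.

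The following genes were picked from the called members after their values were seen. Higher in H were introns of Vcam1 (1.15 ± 0.23 SE, adjusted p = 0.0168), Runx2, a transcription factor gene of bone and cartilage (1.26 ± 0.28 SE, adjusted p = 0.0236), Bckdhb, which encodes a subunit of the branched-chain ketoacid dehydrogenase (1.41 ± 0.23 SE, adjusted p = 0.00964), and Col17a1, a collagen gene (1.56 ± 0.35 SE, adjusted p = 0.0236). Members at Phc2 and Phc3, which both encode Polycomb group proteins, were higher by 1.05 and 1.25 on the log2 scale. Lower in H were members in introns of Akap13, which encodes an anchor of protein kinase A (-1.04 ± 0.23 SE, adjusted p = 0.0218), and Ppm1h, a phosphatase gene (-1.36 ± 0.37 SE, adjusted p = 0.0406), and a member near Ifi209, an interferon-inducible gene (-1.31 ± 0.33 SE, adjusted p = 0.033).

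The other 3 pairs share no library with H and C, and in them the called members can be followed. In HH against CC_l, 39 of the 41 members higher in H were higher and all 39 of the lower ones were lower, with median log2 fold changes of 0.63 and -0.64. The share of same-sign members, 97.5%, stood beside 93.9% for all regions called in H against C, 73.0% for all members and 72.7% for all regions tested. The share was near that of all called regions. It was 88.8% without CC_l 1 and 90% without HH 3. The replicate block gave the same fold changes as leaving out HH 3, since no CC_l library shares its number. The median changes were smaller than in H against C, where the members had been selected by size.

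After weight loss the shares were lower. In HC against CC_s, 35 of 41 were higher and 34 of 39 lower, with medians of 0.39 and -0.55, or 86.3% of the same sign against 83.4% for all called regions and 66.1% for all members. Without HC 3 the counts were 37 and 32 and the medians 0.45 and -0.37. With maximum signal they were 33 of 40 and 31 of 39, and the medians 0.35 and -0.22. In HHC against CCC, 29 of 41 were higher and 32 of 39 lower, with medians of 0.34 and -0.46, or 76.3% against 79.5% for all called regions and 63.8% for all members. The medians were 0.35 and -0.44 without HHC 3 and 0.05 and -0.46 without CCC 2. The median of the higher members was 0.55 without CCC 1 and 0.57 with median centring, so that it depended on the library left out and on the scaling. Whether the effects before and after weight loss differed was not tested.

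The group medians of the called members describe the same values. Over the 41 higher members the median log2 signal was 14.95 in C and 16.28 in H, 15.33 in CC_s and 15.74 in HC, 15.34 in CC_l and 16.11 in HH, and 15.13 in CCC and 15.36 in HHC. Over the 39 lower members it was 16.34 in C and 15.09 in H, 16.07 in CC_s and 15.60 in HC, 16.10 in CC_l and 15.38 in HH, and 16.10 in CCC and 15.69 in HHC. The distance between C and H was fixed in part by the selection, so that a smaller distance in the other pairs is no finding, and the median change of the higher members in HHC against CCC depended on CCC 1, CCC 2 and the scaling as given above.

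**Figure D5:**
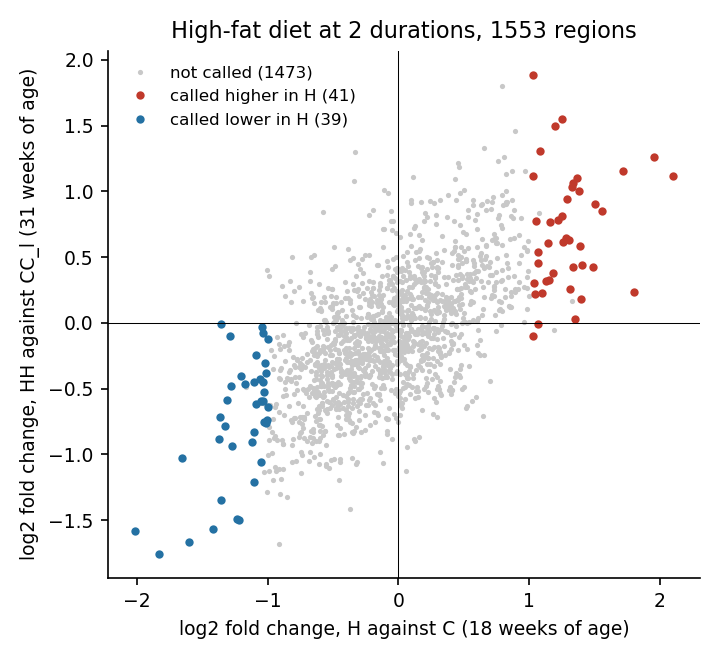
Log2 fold change of each of the 1553 regions in HH against CC_l (y axis) and in H against C (x axis), with the 41 regions called higher and the 39 called lower in H in colour. The comparisons share no library, and 78 of the 80 coloured points have the same sign in both.

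No member was called in the other 3 same-age pairs by limma, nor was any other region (0% called in each). In HC against CC_s 114 members (7.34%) had an unadjusted p under 0.05, against 12.0% of all regions. At an unadjusted p under 0.01 with an absolute log2 fold change above 1, 9 members were higher and 17 lower, against 0.433% and 2.09% of all regions. With median centring 26 were higher and 21 lower, beside 673 and 576 of all regions. In HH against CC_l 146 members (9.40%) had an unadjusted p under 0.05, against 13.7%, and 13 were higher and 14 lower at the stricter threshold, against 1.34% and 1.36%, or 30 and 13 with median centring, beside 1381 and 365 of all regions. In HHC against CCC the numbers were 29 members (1.87%) against 6.20%, with 1 higher and 0 lower against 0.118% and 0.582%, or 14 and 4 with median centring, beside 282 and 208 of all regions. Without HC 3, 12 members were called in HC against CC_s, beside 400 of all 29112 regions, and without HHC 3 no member and no other region was called in HHC against CCC.

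The member of smallest p among those higher in HC lay in an intron of Filip1, which encodes a filamin-binding protein, and was multicopy in 95.9% of its window. Its signal was 16.98, 16.98 and 16.99 in HC and 15.74, 14.93 and 14.88 in CC_s (1.80 ± 0.31 SE, adjusted p = 0.136). The same member had the smallest p among those higher in HHC, at 16.78, 17.55 and 17.41 against 15.58 and 14.66 in CCC (2.13 ± 0.41 SE, adjusted p = 0.751), and was called in H against C. In HH, at 15.84, 17.37 and 17.01, it overlapped CC_l, at 15.85 and 15.51 (adjusted p = 0.388). It was higher after weight loss without overlap in both arms, and was the 1 member past the unadjusted threshold in HHC against CCC. With maximum signal its log2 fold change in HHC was 0.93 (adjusted p = 0.842), not past that threshold. In HC it was called with median centring (adjusted p = 0.0347), in the fit of the arm (adjusted p = 0.0181) and without HC 3 (adjusted p = 0.0418).

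The member near Batf3, which encodes a transcription factor of the AP-1 family, had the smallest p among those lower in HC, with 15.46, 15.50 and 15.58 against 16.98, 16.91 and 16.95 in CC_s (-1.43 ± 0.23 SE, adjusted p = 0.129). By limma it was called with median centring (adjusted p = 0.0384), without trend (adjusted p = 0.0487), in the fit of the arm (adjusted p = 0.0415) and without HC 3 (adjusted p = 0.0235). It was not called in the other alternatives, among them maximum signal (adjusted p = 0.0901). C was at 16.24, 16.37 and 14.98, below every CC_s library, so the controls of this pair also differed from the younger controls. Near Dmrt2, a developmental transcription factor gene, the signal was 14.76, 14.76 and 14.08 in HHC and 16.42 and 16.08 in CCC (-1.72 ± 0.50 SE, adjusted p = 0.751). There HH, at 14.91, 14.78 and 15.80, overlapped CC_l, at 14.86 and 15.49.

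In HH the smallest p among higher members was that of an intron of Sgms1, which encodes a sphingomyelin synthase, at 16.59, 16.32 and 16.15 against 14.52 and 14.59 in CC_l (1.80 ± 0.28 SE, adjusted p = 0.161). With maximum signal the log2 fold change at this member was 0.23, and with median centring the member was called (adjusted p = 0.0492). The window holds a CTCF motif, and the region holds other repeat sequence. No base of the region was covered by a peak in all 22 libraries.

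Control groups of different age gave the background. In CC_s against C, 0 members and 0% of all regions were called by limma, and 122 members (7.86%) had an unadjusted p under 0.05 against 7.78% of all regions. At the stricter unadjusted threshold 10 members were higher and 0 lower, against 0.487% and 0.121%. In CCC against CC_l, 0 members and 0% of all regions were called, 104 members (6.70%) had an unadjusted p under 0.05 against 10.2%, and 1 was higher and 4 lower against 0.589% and 0.400%. At the stricter threshold the count in HHC against CCC, 1, was below the 10 and 5 between control groups, but this order depended on the fit. With median centring the counts were 18, 13 and 14, in the fit of the arm 13, 8 and 1, and with the replicate block 13, 12 and 4. Over all regions they were 490, 328 and 430 with centring, 506, 123 and 133 in the fit of the arm and 598, 274 and 340 with the block.

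The difference between the durations of HFD was tested by the contrast of H with C minus HH with CC_l. No member and 0% of all regions were called by limma, and 45 members (2.90%) had an unadjusted p under 0.05 against 6.17% of all regions. For weight loss, the contrast of HC with CC_s minus HHC with CCC also called 0 members and 0% of all regions, with 18 members (1.16%) at an unadjusted p under 0.05 against 2.37%. A difference in effect between the arms was not detected at the members with these group sizes.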

How the data were processed

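The authors trimmed reads with Trim Galore 0.6.6, aligned them to GRCm38 (mm10) with Bowtie2 2.4.4 and called peaks per library with SEACR 1.3 in stringent mode at a threshold of 0.01, as the methods and the submitters' processing notes state; replicates were not pooled. The deposited values are signal: coverage summed over a peak, and its maximum. No normalization is stated for either, the lists hold no read counts, and depth is not known. The methods state that peaks on blacklisted regions were filtered out, and whether the deposited lists precede that step is not stated. Peaks were merged, and annotated with GENCODE vM21 basic transcripts. The 22 libraries were grouped by their labels, and none was left out. Total signal was rank-mapped over 29500 regions, with a floor of 14.01 on the log2 scale.

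Each pair was fitted alone with limma 3.58.1 (R 4.3.3, eBayes with trend), with Benjamini-Hochberg adjustment over all regions, and the script was tested on simulated data. Regions were named by fixed rules: highest signal, smallest p in each pair and direction, smallest and largest SD, and most members per gene. The members and gene lists were chosen with earlier results of these data known. Windows were read from RefSeq GRCm38.p6 with pysam 0.24.0, and a window was multicopy when at least 50% of its 31-base words recurred on the nuclear chromosomes. Similarity to mitochondrial DNA was found with blastn 2.17.0. Alternatives were maximum signal, median centring, no filter, no trend, a fit of the whole arm, replicate blocks, other widths and windows, and each library left out. Same-numbered C and CC_s libraries deviated together (correlations 0.49, 0.38 and 0.34). In the other comparisons the correlations ran from -0.18 to 0.16, and whether the numbers mark pairs is not stated. p-values measure the spread between individual mice. Some items that the naming rules select are not reported here.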

Additional observations from a re-analysis of the deposited data

How the results depend on the processing

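The members of smallest p, each followed in the comparison that named it, kept their direction under every alternative run, and no other named member was followed. The number of members was 3475 with no width limit, 305 at a limit of 5 kb and 7 when every library had to cover at least 50% of the region, and 1554 to 2225 with each library left out. The PPAR-RXR share was 0.90% with 500 bp windows. Members called in H against C numbered 29 with maximum signal, 9 with no filter on regions and 299 at any width, and 11 to 94 with a library left out. At the unadjusted threshold the numbers were 30, 44 and 308, and 45 to 106. In HC against CC_s, calls numbered 1 with maximum signal, 3 with median centring, 3 without trend, 10 in the fit of the arm and 0 to 12 with a library left out, beside 2, 78, 80, 376 and 0 to 400 of all regions. Unadjusted counts were 47 with centring, 85 at any width and 7 to 40. In HH against CC_l, 1 member was called with centring and 1 in the fit of the arm, beside 79 and 70 of all regions. With a library left out 0 members were called, beside 217 and 277 of all regions without CC_l 1 and CC_l 2 and 0 without an HH library. Unadjusted counts there were 8 with maximum signal, 43 with centring, 17 with no filter, 16 in the fit of the arm, 104 at any width and 5 to 37. In HHC against CCC they were 7, 18, 6, 10 without trend, 13 in the fit of the arm, 10 at any width, 0 without repeat sequence and 0 to 10. In CC_s against C they were 1 with no filter, 6 without trend, 29 at any width, 6 without repeat sequence and 3 to 14. In CCC against CC_l they were 14 with centring, 2 with no filter, 11 without trend, 1 in the fit of the arm, 31 at any width and 0 to 16. The cause of these changes was not tested.

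With the replicate number as a block, 63 members and 2380 of all regions were called in H against C, 1 member and 173 of all regions were called in HH against CC_l, where no region was called without the block, and the unadjusted count in HHC against CCC was 13. In HH against CC_l and HHC against CCC the block gave the same fold changes as leaving out HH 3 and HHC 3. In CC_s against C, the pair whose same-numbered libraries deviated together, the block called 0 members and 2 of all regions, where no region was called without it. The unadjusted count of members there was 12 against 10. Crossing the numbers of CCC and CC_l, an alternative chosen after seeing the data as was the one without repeat sequence, gave 14. HC 3 and HHC 3 had the lowest coverage, and the control groups of both long-arm pairs held 2 libraries. Their part in the counts was not tested beyond leaving out each library.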
